A study of Homo sapiens with 9 samples.

Results

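The DEAD and DEAH box helicases described here are the 52 genes whose symbols begin with DDX or DHX followed by a number, out of 61806 genes in the deposited table. The rule rested on symbols and used no measured value, but it was chosen with earlier results of these data known. It left out 4 genes by name (DDX58, DDX60, DDX60L and DDX3Y). Of the 52, 36 carry a DDX and 16 a DHX symbol, they lie on 18 chromosomes, and 51 are protein coding, the exception being the pseudogene DDX12P. The filter on low counts kept 48 of them for testing.

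RNA came from 786-O, an established human renal cell carcinoma line, in 3 groups of 3 libraries: control, TRIM28 knockdown and PARP1 knockdown. TRIM28 is a corepressor of KRAB zinc finger proteins, while PARP1 adds poly(ADP-ribose) chains to proteins at DNA breaks. The labels call the control wild type and give it a negative control reagent, while the series text calls the same cells parental. The knockdown reagent is named siRNA in some fields and shRNA in others, so its kind is uncertain. Polyadenylated RNA was sequenced, all libraries carry 1 batch label, and no time after transfection is given in the labels. Nothing in the labels says that replicates came from separate cultures, so the tests measure the spread between these libraries, which may be technical.

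These proteins bind RNA and use ATP to open short duplexes or to remove proteins from RNA. They act at nearly every step of an RNA's life, from transcription and splicing through ribosome assembly to export, translation and decay. Their name comes from a stretch of the ATP-binding core, Asp-Glu-Ala-Asp in the DEAD class and Asp-Glu-Ala-His in the DEAH class. Several DEAH helicases are switched on by partner proteins that carry a G-patch domain.

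The bases that encode that box, or the stretch in its place, are shown for 8 genes on which the results turn. Genes were taken into the set by symbol and not by this box. Capitals mark the 4 box codons, with 12 bases of coding sequence on each side, read 5′ to 3′ on the coding strand from GENCODE 29 on GRCh38. All lie within a single coding exon.
DHX9 (chr1:182867005-182867040, + strand, exon 14): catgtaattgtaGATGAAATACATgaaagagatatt
DHX15 (chr4:24556311-24556346, - strand, exon 4): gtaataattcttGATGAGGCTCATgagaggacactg
DDX5 (chr17:64503233-64503268, - strand, exon 7): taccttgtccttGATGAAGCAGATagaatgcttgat
DDX17 (chr22:38494931-38494966, - strand, exon 7): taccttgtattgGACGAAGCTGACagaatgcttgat
DDX19A (chr16:70366189-70366224, + strand, exon 8): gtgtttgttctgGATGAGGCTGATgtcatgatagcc
DDX19B (chr16:70329396-70329431, + strand, exon 8): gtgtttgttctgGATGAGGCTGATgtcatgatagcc
DDX39A (chr19:14410996-14411031, - strand, exon 5): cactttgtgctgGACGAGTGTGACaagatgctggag
DDX56 (chr7:44572609-44572644, - strand, exon 4): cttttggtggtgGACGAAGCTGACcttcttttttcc
By this search 29 genes had codons for the DEAD box and 9 for the DEAH box. Another 12, among them DHX9 and DDX39A, had a different codon in place of the box's alanine codon. The search found no box in DHX32, and DDX12P has no coding transcript. The stretch is the same in DDX19A and DDX19B, neighbouring genes on chromosome 16. The box class is set beside the expression changes further on.

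The knockdowns and the cell identity were checked first. TRIM28 was at 15.1% of its control level in TRIM28 knockdown, and PARP1 at 3.11% of control in PARP1 knockdown. PARP1 was also at 52.9% of control in TRIM28 knockdown. Its log2 fold change there was -0.92, and -0.58 with length and GC trends removed from each library. Library totals ran from 11963110 to 20224374 counts. The keratins KRT8, KRT18 and KRT19 and the renal factor PAX8 were expressed in all 9 libraries. CDH1 was at 0 in all of them, and EPCAM and LRP2 were at most 0.645 and 0.124 CPM (counts scaled to library size). Summed leukocyte, endothelial and fibroblast markers reached at most 0.498, 1.29 and 1.20 CPM. Of these, PTPRC and CD3E were at 0 throughout.

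In control cells, the family was led by DDX56 and DDX39A. DDX56, a nucleolar helicase of large ribosomal subunit assembly, had 134 ± 11.4 FPKM (fragments scaled to library size and gene length; SD, n = 3). DDX39A, an mRNA export helicase, had 114 ± 9.66 FPKM (SD, n = 3), and the ranges of these 2 genes overlapped. DDX54 followed at 57.4 ± 3.31 and DDX41 at 56.2 ± 2.15 FPKM (SD, n = 3), again overlapping each other but below DDX39A in every control library. DDX23, DHX16, DDX5 and DDX24 came next, from 40.2 down to 35.7 FPKM, each overlapping its neighbour. In all, 16 genes had a mean of at least 10 FPKM, 24 lay between 1 and 10, and 12 were under 1. The median control level of the tested helicases was 5.93 FPKM, against 2.73 FPKM over all tested genes. At the low end DDX47 had 0.197 FPKM, and the germ line and testis genes DDX43, DDX25, DDX4 and DDX53 were not tested, with 8, 1, 0 and 0 counts over all 9 libraries.

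In TRIM28 knockdown, helicase transcripts more often fell than rose. DHX9, DDX42, DDX1 and DHX15 fell the most among members with a mean of at least 1 FPKM, and DDX28, DDX49, DDX39A and DDX56 rose. By edgeR with an adjusted p below 0.05, 21 of 48 fell, 7 rose and 20 did not pass. Over all 13562 tested genes 17.5% fell and 10.3% rose, 27.8% in either direction. The helicases' median log2 fold change was -0.39, against -0.02 for all tested genes. In bulk RNA, fewer cells of a kind and less RNA per cell cannot be told apart.

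In PARP1 knockdown 28 of 48 helicases fell, 10 rose and 10 did not pass, with a median log2 fold change of -0.86. Over all tested genes 32.2% fell and 27.1% rose, 59.3% in either direction, with a median of -0.07. DHX9, DDX18, DDX17 and DHX33 led the falls and DDX49 and DDX28 led the rises among members with a mean of at least 1 FPKM. Both comparisons use the same 3 control libraries, so their values are given side by side and are not independent of each other.

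**Figure D1:**
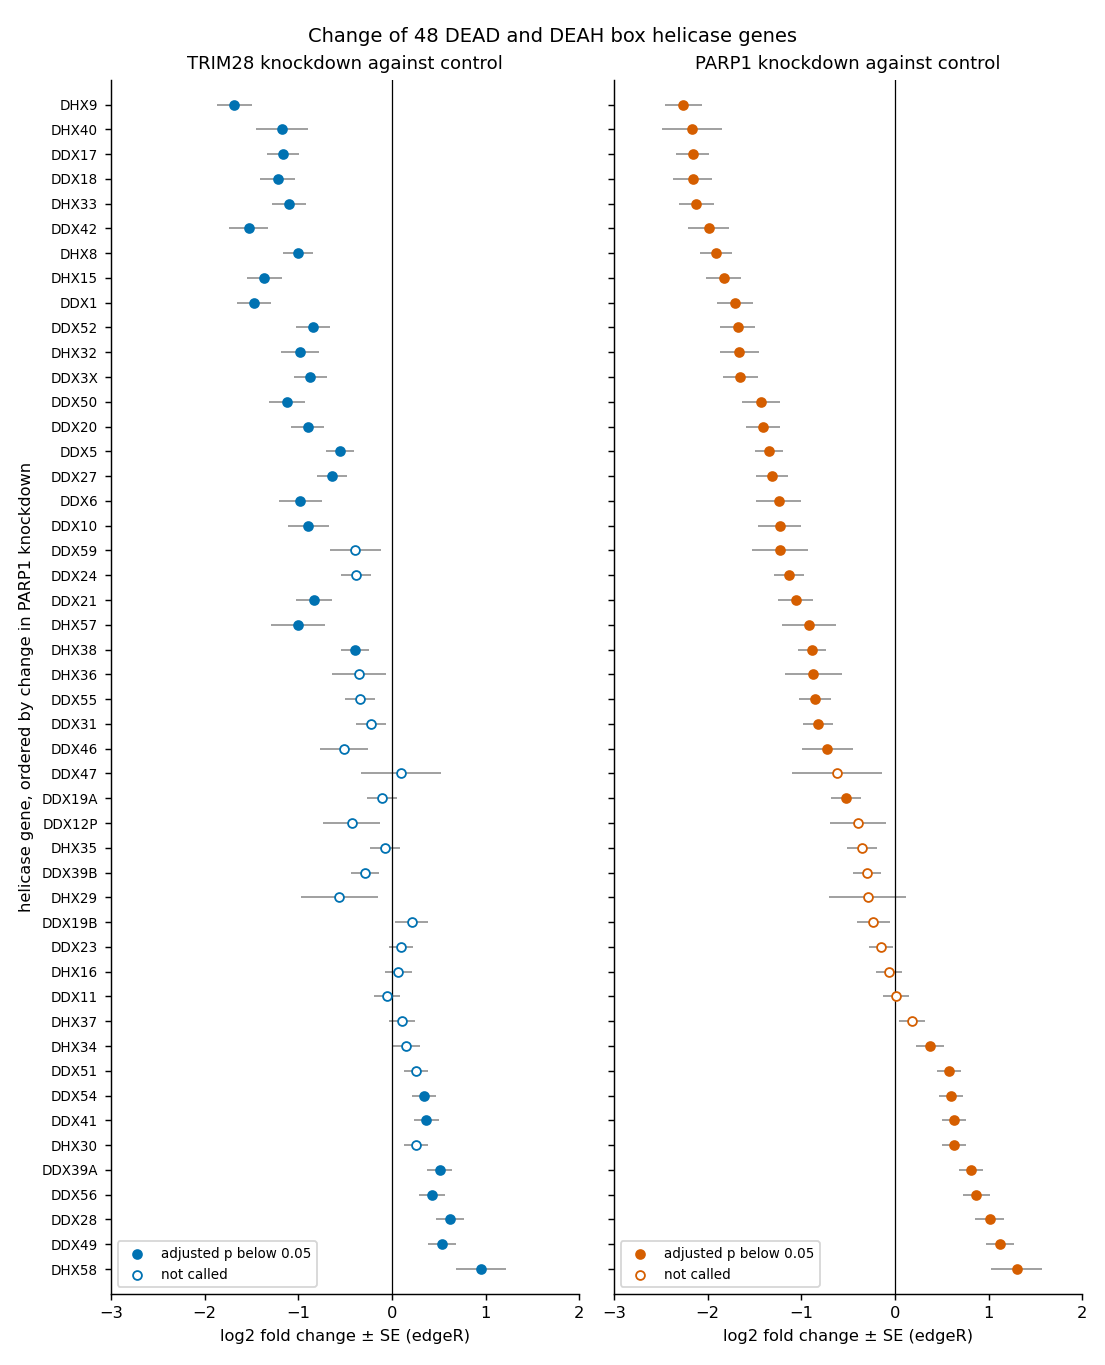
Log2 fold change against control (horizontal axis, point with bar of 1 SE from edgeR) of the 48 tested helicase genes (vertical axis, ordered by the change in PARP1 knockdown), for TRIM28 knockdown on the left and PARP1 knockdown on the right. Filled points passed an adjusted p of 0.05: 21 lower and 7 higher on the left, 28 lower and 10 higher on the right.

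The falls and the rises differed in base composition. In TRIM28 knockdown the 21 genes that fell had a median GC content of 42.6% in their longest transcript and a median summed exon length of 8521 bases. The 7 that rose had 58.3% and 3824 bases. In PARP1 knockdown the medians were 43.0% and 8344 bases for the 28 falls, and 58.6% and 4019 bases for the 10 rises. Of the 30 tested helicases with GC below 50%, a limit chosen after seeing the values, 19 fell and 0 rose in TRIM28 knockdown and 25 fell and 0 rose in PARP1 knockdown. Among the 18 at 50% or more, 2 fell and 7 rose in TRIM28 knockdown and 3 fell and 10 rose in PARP1 knockdown. DHX38, a splicing helicase with 56.6% GC, was the fall with the highest GC in each comparison.

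The whole set of tested genes leaned the same way. Of 7279 genes with GC below 50%, 26.5% fell and 5.43% rose in TRIM28 knockdown and 47.4% fell and 12.1% rose in PARP1 knockdown. Of 6111 at 50% or more, 7.2% fell and 16.1% rose in TRIM28 knockdown and 14.6% fell and 45.3% rose in PARP1 knockdown. For the helicases at 50% or more, the shares were 11.1% and 38.9% in TRIM28 knockdown and 16.7% and 55.6% in PARP1 knockdown. Across the 48 helicases, which are not independent replicates, Spearman's rank correlation of the log2 fold change with GC was 0.734 in TRIM28 knockdown and 0.726 in PARP1 knockdown. Across all tested genes it was 0.424 and 0.509. The libraries themselves differed along this axis. Each gene's log2 level was taken relative to its mean over the 9 libraries, so the slopes compare libraries only with each other. Per 10 points of GC this relative level changed by -0.348, -0.296 and -0.0856 in control libraries 1 to 3. It changed by -0.104, 0.0224 and 0.0649 in the TRIM28 knockdown libraries, and by 0.268, 0.196 and 0.283 in the PARP1 knockdown libraries. Control replicate 3 thus stood apart from the other controls, toward the knockdowns.

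With length and GC trends removed from each library, 16 helicases fell and 1 rose in TRIM28 knockdown, where 14.1% of all tested genes fell and 7.39% rose. In PARP1 knockdown 23 fell and 6 rose, against 28.3% and 18.5% of all tested genes. The median log2 fold changes of the helicases were then -0.22 and -0.41, against -0.07 and -0.12 for all tested genes. The rank correlation with GC across the helicases was still 0.540 and 0.511. Over all tested genes it was 0.008 and 0.019, but the trends were fitted on those genes, so values near 0 were set by the removal. Whether other gene sets keep such a correlation was not tested. When scaled by library totals and no TMM factors, the median of all tested genes moved to -0.18 and -0.39. The helicase counts were then 23 lower and 4 higher in TRIM28 knockdown and 32 lower and 8 higher in PARP1 knockdown. The share of all tested genes that passed with this scaling was not counted, here or for the gene lists below. This scaling ended the rises of DDX41, DDX54 and DDX56 in TRIM28 knockdown (0.21, 0.19 and 0.27) and of DDX51 and DHX34 in PARP1 knockdown (0.25 and 0.05). It added DDX24 and DDX39B as lower in TRIM28 knockdown (-0.54 and -0.45), and DDX19B, DDX23, DHX35 and DDX39B as lower in PARP1 knockdown (-0.54, -0.47, -0.66 and -0.61). The part of GC content and length in the helicases' changes was not tested further. In what follows, "trend-corrected" means with length and GC trends removed from each library.

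**Figure D2:**
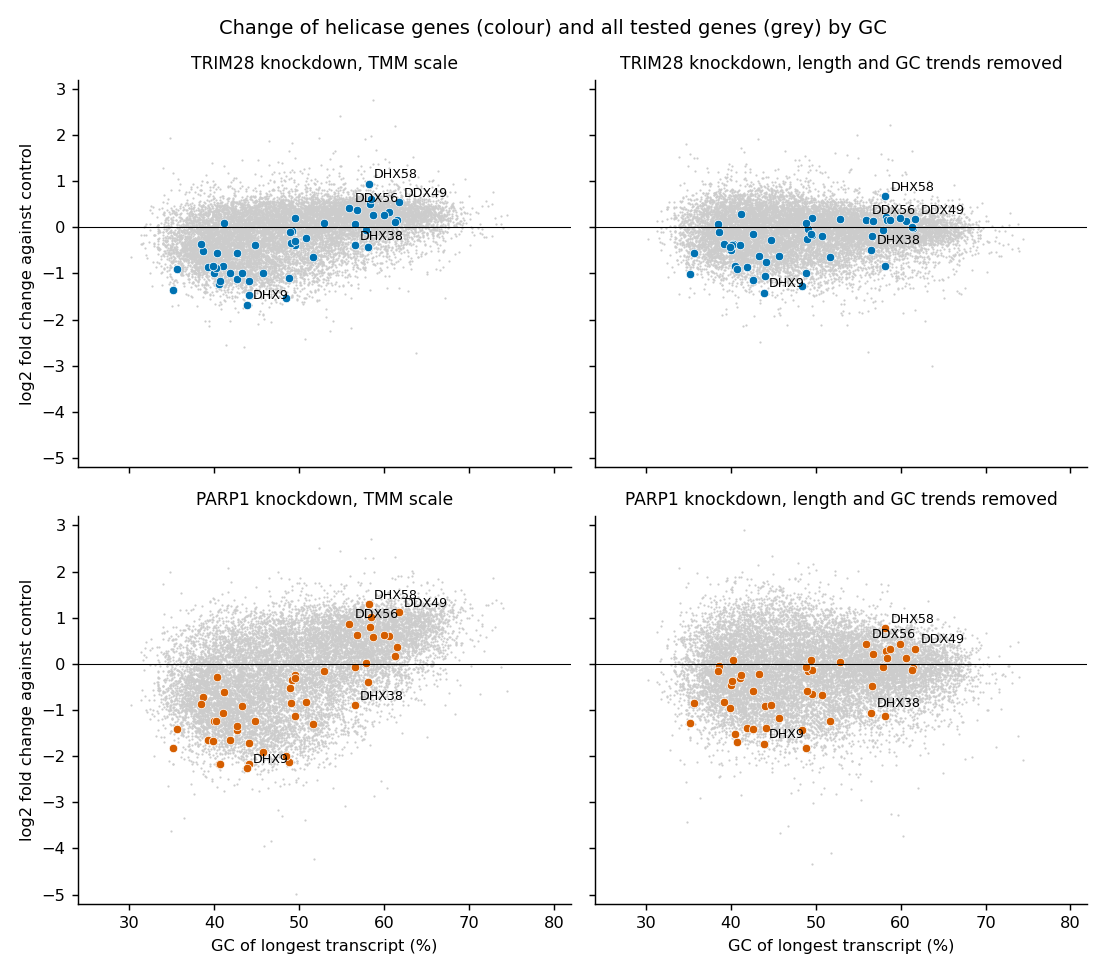
Log2 fold change against control (vertical axis) by GC content of the longest transcript in percent (horizontal axis), with helicases in colour and all tested genes in grey, on the TMM scale (left) and with length and GC trends removed (right). Helicases below 50% GC lie mostly under 0 on the left (19 fell and 0 rose in TRIM28 knockdown, 25 and 0 in PARP1 knockdown), and 2 genes above 3.2 fall outside each PARP1 knockdown panel.

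The 5 helicases listed here under transcription and RNA-DNA hybrids were DHX9, DDX1, DDX5, DDX17 and DDX20. All 5 fell in TRIM28 knockdown and all 5 in PARP1 knockdown, with medians of -1.16 and -1.71. Each helicase was put in 1 role group only, so members of other groups may share this role, and some of those groups held rises. The median GC of these 5 was 43.9% and their median exon length 9311 bases. Trend-corrected, 4 of 5 fell in TRIM28 knockdown and 5 of 5 in PARP1 knockdown. Of all tested genes, 17.5% fell in TRIM28 knockdown and 32.2% in PARP1 knockdown, or 14.1% and 28.3% when trend-corrected. The role groups were not tested against other genes.

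DHX9 (chr1:182839347-182887982, + strand), also called RNA helicase A, unwinds RNA duplexes and RNA-DNA hybrids. It measured 64.2, 66.8 and 35.6 CPM in control, 19.1, 17.8 and 15.2 CPM with TRIM28 knocked down, and 9.67, 12 and 13.4 CPM with PARP1 knocked down. All knockdown libraries lay below all controls, and control replicate 3 was the lowest control. The log2 fold change was -1.68 ± 0.19 (SE, adjusted p = 1.47e-06) in TRIM28 knockdown, or 3.2-fold lower, and -2.26 ± 0.20 (adjusted p = 1.83e-09) in PARP1 knockdown, or 4.78-fold lower. Trend-corrected it was -1.42 and -1.73, both past the threshold. On the TMM scale DHX9 had the largest fall among all 48 helicases in both comparisons. Trend-corrected, DHX33 fell further than DHX9 in PARP1 knockdown (-1.83), and with limma on log2(FPKM + 1) DDX17 did.

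DDX17 and DDX5 are close paralogs that act as transcription coregulators and in microRNA processing. DDX17 measured 231, 222 and 171 CPM in control, 91.2, 94.3 and 93.4 CPM with TRIM28 knocked down, and 64.1, 41.5 and 33.8 CPM with PARP1 knocked down. Its log2 fold changes were -1.16 ± 0.17 (adjusted p = 2.22e-05) and -2.16 ± 0.18 (adjusted p = 6.31e-10). DDX5 measured 334, 326 and 274 CPM in control, 234, 209 and 194 CPM with TRIM28 knocked down, and 146, 125 and 96.1 CPM with PARP1 knocked down. Neither gene's knockdown libraries overlapped its controls. DDX5 changed by -0.55 ± 0.15 (adjusted p = 0.00703) and -1.34 ± 0.15 (adjusted p = 5.19e-08). Its TRIM28 knockdown call was lost without control replicate 1 (-0.48), without TRIM28 knockdown replicate 3 (-0.47) and when trend-corrected (-0.14). In PARP1 knockdown the trend-corrected values were -1.39 for DDX17 and -0.59 for DDX5.

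DDX1, which takes part in RNA-DNA hybrid clearance and tRNA ligation, measured 47.1, 45.7 and 30.1 CPM in control, 18.1, 13.1 and 13.1 CPM with TRIM28 knocked down, and 11.3, 11.3 and 15.0 CPM with PARP1 knocked down. It changed by -1.47 ± 0.18 (adjusted p = 3.48e-06) and -1.71 ± 0.19 (adjusted p = 4.85e-08). The second of these was -0.92 when trend-corrected. DDX20, a partner of the SMN complex, fell from a mean of 22 CPM in control to 11.8 and 8.25 CPM, by -0.90 ± 0.18 and -1.41 ± 0.18 on the log2 scale.

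Among 11 helicases of splicing, 4 fell, 2 rose and 5 missed the threshold in TRIM28 knockdown, and 5 fell, 2 rose and 4 did not pass in PARP1 knockdown. The shares of all tested genes were 17.5% lower and 10.3% higher, then 32.2% and 27.1%. DHX15, which releases spliced introns from the spliceosome and also serves ribosome assembly, measured 71.3, 67.3 and 36.8 CPM in control, 25.9, 20.7 and 21.4 CPM with TRIM28 knocked down, and 14.1, 17 and 18.2 CPM with PARP1 knocked down. It fell by 1.36 (SE 0.19, adjusted p = 1.07e-05) and by 1.83 (SE 0.19, adjusted p = 2.8e-08) on the log2 scale. DHX15 had the lowest GC of the family, 35.2%, and its trend-corrected values were -1.01 and -1.29.

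DHX38, which acts in the second splicing step, fell by 0.39 (SE 0.15, adjusted p = 0.0452) and by 0.89 (SE 0.15, adjusted p = 1.25e-05), and DDX46, of U2 recruitment, passed in PARP1 knockdown (-0.72 ± 0.27, adjusted p = 0.0259) with overlapping libraries. The TRIM28 knockdown call of DHX38 was lost when any library was left out except PARP1 knockdown replicate 1 or 3 (-0.31 to -0.44). The PARP1 knockdown call of DDX46 was lost without control replicate 1 (-0.61) or 2 (-0.46) or PARP1 knockdown replicate 1 (-0.49). Trend-corrected, DHX38 was at -0.48 and -1.06, while DDX46 was at -0.04 in PARP1 knockdown and its call was lost.

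DDX42, a component of the U2 particle, measured 47.7, 49.8 and 26.3 CPM in control, 14.1, 15.1 and 13.7 CPM with TRIM28 knocked down, and 9.34, 14.5 and 7.22 CPM with PARP1 knocked down. Its changes were -1.53 ± 0.21 (adjusted p = 1.26e-05) and -1.99 ± 0.22 (adjusted p = 5.79e-08). DHX8, which releases spliced mRNA, measured 77.2, 73.5 and 63.9 CPM in control, 36.6, 34.8 and 35.9 CPM with TRIM28 knocked down, and 25.3, 18.0 and 13.2 CPM with PARP1 knocked down. The lowest control of DHX8 lay well above every knockdown library. It changed by -1.0 ± 0.16 (adjusted p = 9.47e-05) and -1.91 ± 0.17 (adjusted p = 2.41e-09), the latter -1.18 when trend-corrected.

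DDX39A and DDX41 were the splicing helicases that rose. DDX39A went from 363, 370 and 450 CPM in control to 538, 571 and 572 CPM in TRIM28 knockdown and 595, 709 and 774 CPM in PARP1 knockdown. Its changes were 0.51 ± 0.13 (adjusted p = 0.00675) and 0.81 ± 0.13 (adjusted p = 1.19e-05). When trend-corrected they were 0.22, no longer past the threshold, and 0.28. DDX41, a helicase linked to familial myeloid disease, measured 204, 199.7 and 227 CPM in control, 251, 286 and 278 CPM with TRIM28 knocked down, and 305, 302 and 366 CPM with PARP1 knocked down. It changed by 0.37 ± 0.13 (adjusted p = 0.0333) and 0.63 ± 0.13 (adjusted p = 0.00018). Both calls of DDX41 were lost when trend-corrected (0.14 and 0.22), and the first also without any 1 of 4 libraries (0.35 to 0.37: control replicates 1 and 2, TRIM28 knockdown replicates 2 and 3). DDX23 and DHX16, both needed to activate the spliceosome, did not pass in either knockdown, at log2 fold changes of 0.10 ± 0.13 and 0.07 ± 0.14 in TRIM28 knockdown and -0.15 ± 0.13 and -0.06 ± 0.14 in PARP1 knockdown. Other settings called both lower in PARP1 knockdown. DHX16 passed when trend-corrected (-0.49) and with both limma settings (-0.39 and -0.40). DDX23 passed with library totals (-0.47), with at least 10 CPM in 3 libraries (-0.27) and with both limma settings (-0.47 and -0.49), but was at 0.04 when trend-corrected.

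**Figure D3:**
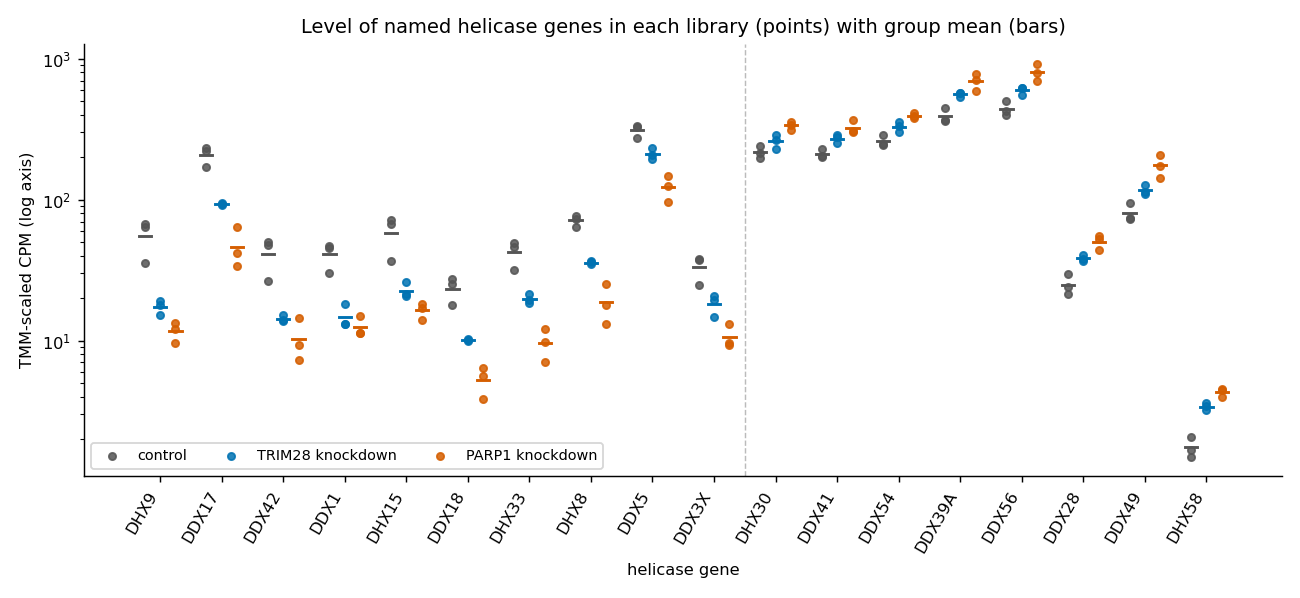
TMM-scaled CPM (vertical log axis) of 18 named helicase genes (horizontal axis) in each library (points, 3 per group) with group means (bars); genes left of the dashed line fell and those right of it rose in PARP1 knockdown. DHX9 drops from a control mean of 55.5 to 17.4 and 11.7 CPM, while DDX56 climbs from 443 to 597 and 808 CPM.

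The 16 ribosome biogenesis helicases split in both directions. In TRIM28 knockdown 7 fell, 3 rose and 6 did not pass, and in PARP1 knockdown 10 fell, 4 rose and 2 did not pass. Among all tested genes 17.5% fell and 10.3% rose, then 32.2% and 27.1%. Trend-corrected, 5 fell and 0 rose in TRIM28 knockdown and 8 fell and 3 rose in PARP1 knockdown. DDX18, a nucleolar helicase, measured 25.1, 27.2 and 18.0 CPM in control, 10.02, 9.88 and 10.2 CPM with TRIM28 knocked down, and 3.84, 6.34 and 5.64 CPM with PARP1 knocked down. Each knockdown formed a separate tier below the controls. DDX18 changed by -1.22 ± 0.19 (adjusted p = 5.04e-05) and -2.16 ± 0.21 (adjusted p = 6.07e-09), the latter -1.51 when trend-corrected. DHX33, which acts in ribosomal RNA transcription, measured 49.0, 46.0 and 31.9 CPM in control, 18.4, 21.4 and 19.3 CPM with TRIM28 knocked down, and 12, 9.81 and 7.03 CPM with PARP1 knocked down. Its changes of -1.10 ± 0.18 (adjusted p = 7.25e-05) and -2.12 ± 0.19 (adjusted p = 2.09e-09) were -1.0 and -1.83 when trend-corrected.

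DDX21 and DDX50 are neighbouring paralogs on chromosome 10 that act in the nucleolus. DDX21 measured 53.9, 57.7 and 31.4 CPM in control, 30.1, 24.7 and 25.7 CPM with TRIM28 knocked down, and 16.9, 24.5 and 27.3 CPM with PARP1 knocked down. The lowest control was only just above the highest TRIM28 knockdown library. DDX21 changed by -0.83 ± 0.19 (adjusted p = 0.00256) and -1.06 ± 0.19 (adjusted p = 4.22e-05), and both calls were lost when trend-corrected (-0.39 and -0.31). DDX50 measured 23.9, 22.3 and 16.6 CPM in control, 8.59, 11.1 and 9.34 CPM with TRIM28 knocked down, and 9.41, 7.36 and 6.33 CPM with PARP1 knocked down. It changed by -1.12 ± 0.19 (adjusted p = 0.00013) and -1.43 ± 0.20 (adjusted p = 1.03e-06), with nearly the same values when trend-corrected (-1.14 and -1.42). DDX50 has a summed exon length of 2683 bases, the shortest of any helicase that fell in either knockdown.

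DDX27 (-0.64 ± 0.16 and -1.31 ± 0.17), DDX52 (-0.84 ± 0.18 and -1.68 ± 0.19) and DDX10 (-0.89 ± 0.22 and -1.23 ± 0.23) also fell in both. Trend-corrected, DDX10 lost both calls (-0.39 and -0.37), and DDX52 passed at -0.42 and -0.95. DDX24, DDX31 and DDX55 fell in PARP1 knockdown (-1.13 ± 0.16, -0.82 ± 0.16 and -0.85 ± 0.17) and missed the threshold in TRIM28 knockdown (-0.38, -0.22 and -0.34). DDX24 passed as lower in TRIM28 knockdown with the compared groups alone (-0.38), no filter on low counts (-0.40) and at least 10 CPM in 3 libraries (-0.48), and DDX55 under the last (-0.44). DDX47 and DHX37 passed in neither.

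The ribosome biogenesis helicases that rose were DDX49, DDX56 and DDX54, and in PARP1 knockdown also DDX51. DDX49 measured 72.5, 74.4 and 94.5 CPM in control, 109, 113 and 128 CPM with TRIM28 knocked down, and 143, 173 and 209 CPM with PARP1 knocked down. It changed by 0.54 ± 0.15 (adjusted p = 0.00883) and 1.12 ± 0.15 (adjusted p = 6.97e-07). DDX56 measured 398, 428 and 503 CPM in control, 551, 618 and 621 CPM with TRIM28 knocked down, and 699.9, 799 and 924 CPM with PARP1 knocked down. Its 3 groups did not overlap, and its changes were 0.43 ± 0.14 (adjusted p = 0.0198) and 0.87 ± 0.14 (adjusted p = 6.57e-06). DDX54 measured 244, 249.1 and 289 CPM in control, 303, 333 and 354 CPM with TRIM28 knocked down, and 391, 381 and 411 CPM with PARP1 knocked down. It changed by 0.34 ± 0.13 (adjusted p = 0.0447) and 0.60 ± 0.13 (adjusted p = 0.00025).

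These rises were smaller when trend-corrected. In TRIM28 knockdown DDX49, DDX56 and DDX54 were then at 0.18, 0.17 and 0.13 and none passed. In PARP1 knockdown DDX49 (0.33) and DDX56 (0.44) passed and DDX54 (0.12) did not. The TRIM28 knockdown calls of all 3 were also lost without control replicate 1 (0.49, 0.38 and 0.31) or control replicate 2 (0.50, 0.42 and 0.33). Those of DDX56 and DDX54 were lost without TRIM28 knockdown replicate 2 (0.43 and 0.36) or 3 (0.42 and 0.31) as well, and that of DDX54 also without TRIM28 knockdown replicate 1 (0.40) or PARP1 knockdown replicate 2 (0.34).

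Of the 7 helicases of export, translation and decay, 2 fell in TRIM28 knockdown and 5 did not pass, and in PARP1 knockdown 4 fell, 1 rose and 2 did not pass. Beside these stand 17.5% lower and 10.3% higher, then 32.2% and 27.1%, of all tested genes. DDX3X, which helps ribosomes scan structured leaders, measured 37.6, 37.8 and 24.7 CPM in control, 20.7, 19.4 and 14.7 CPM with TRIM28 knocked down, and 9.27, 9.56 and 13.2 CPM with PARP1 knocked down. All libraries of each knockdown were below all controls. The changes were -0.87 ± 0.18 (adjusted p = 0.00114) and -1.65 ± 0.19 (adjusted p = 1.12e-07). Trend-corrected, the first call was lost (-0.37) and the second was kept at -0.83. DDX6, a translational repressor of P-bodies, fell by 0.98 (SE 0.23, adjusted p = 0.003) and by 1.24 (SE 0.24, adjusted p = 7.54e-05) on the log2 scale. Both calls were lost when trend-corrected (-0.50 and -0.45), and the first also without control replicate 1 (-0.71). In PARP1 knockdown the nonsense-mediated decay helicase DHX34 rose (0.37 ± 0.15, adjusted p = 0.0328, but -0.08 when trend-corrected), and the G-quadruplex helicase DHX36 fell (-0.87 ± 0.30, adjusted p = 0.0161, but -0.15 and no longer past the threshold when trend-corrected), both with overlapping libraries. Both calls were lost without control replicate 1 (0.35 and -0.59) or 2 (0.40 and -0.75), that of DHX34 also without PARP1 knockdown replicate 3 (0.25) and that of DHX36 without replicate 1 (-0.60). DHX29, of translation initiation, passed in neither. Trend-corrected, 0 of the 7 passed in TRIM28 knockdown and 1 fell in PARP1 knockdown.

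DDX19A and DDX19B, paralogs that remodel mRNA at the nuclear pore, measured 25.8, 25.7 and 25.8 CPM and 19.3, 19.6 and 18.1 CPM in control. In TRIM28 knockdown they measured 23.5, 21.4 and 26.5 CPM and 20.0, 23.1 and 23.0 CPM, and in PARP1 knockdown 21.0, 18.9 and 13.6 CPM and 21.5, 15.1 and 11.5 CPM. DDX19A missed the threshold in TRIM28 knockdown (-0.11 ± 0.16, adjusted p = 0.644) and fell in PARP1 knockdown (-0.52 ± 0.16, adjusted p = 0.00737), a call lost without PARP1 knockdown replicate 3 (-0.37) and when trend-corrected (-0.06). DDX19B passed in neither (0.21 ± 0.18, adjusted p = 0.389, and -0.23 ± 0.18, adjusted p = 0.275), though limma called it lower in PARP1 knockdown (-0.48 and -0.60 with the 2 pseudocounts). Of all 50-base windows in the transcripts, 8.24% of those of DDX19A also occur in DDX19B and 14.7% the other way, so the split of their reads is uncertain.

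DHX58, known as LGP2, a regulator of the RIG-I-like RNA sensors and an interferon-induced gene, was low in every library. It measured 1.68, 1.5 and 2.07 CPM in control, 3.42, 3.59 and 3.2 CPM with TRIM28 knocked down, and 4.44, 4.57 and 3.96 CPM with PARP1 knocked down. Neither knockdown overlapped the controls. It rose by 0.95 ± 0.27 (adjusted p = 0.0111) and 1.3 ± 0.27 (adjusted p = 0.000196), and by 0.67 and 0.77 when trend-corrected, both past the threshold. Without control replicate 2 the TRIM28 knockdown call was lost (0.87).

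Both helicases of mitochondrial RNA were higher in PARP1 knockdown. DDX28, which serves mitochondrial ribosome assembly, measured 21.4, 23.9 and 29.5 CPM in control, 36.9, 38.1 and 40.5 CPM with TRIM28 knocked down, and 43.9, 52.4 and 54.9 CPM with PARP1 knocked down. It rose by 0.62 ± 0.15 (adjusted p = 0.00299) and 1.01 ± 0.15 (adjusted p = 2.47e-06). Both calls were lost when trend-corrected (0.17 and 0.12). DDX28 has 58.4% GC and, at 2317 bases, the shortest exon length of the family. DHX30, of mitochondrial ribosome assembly and cytosolic translation, measured 199, 216 and 240 CPM in control, 230, 264 and 288 CPM with TRIM28 knocked down, and 341, 312 and 357 CPM with PARP1 knocked down. It missed the threshold in TRIM28 knockdown (0.26 ± 0.13, adjusted p = 0.143), where the groups overlapped, and rose in PARP1 knockdown (0.63 ± 0.13, adjusted p = 0.000215, and 0.43 when trend-corrected).

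DDX11, a DNA helicase of sister chromatid cohesion, and its pseudogene DDX12P passed in neither knockdown, at -0.05 ± 0.14 and -0.43 ± 0.30 in TRIM28 knockdown and 0.01 ± 0.14 and -0.39 ± 0.30 in PARP1 knockdown. In DDX12P 43.8% of the 50-base windows also occur in DDX11, so its counts are uncertain. Trend-corrected, DDX12P passed as lower in both (-0.83 and -1.12). Among the less studied DHX32, DHX40, DHX57 and DDX59, 3 fell in TRIM28 knockdown and all 4 in PARP1 knockdown. Trend-corrected, 2 fell in TRIM28 knockdown and 3 in PARP1 knockdown, and DHX57 lost both calls (-0.62 and -0.22). DHX57 also lost its TRIM28 knockdown call without control replicate 1 or 2 or replicate 1 or 3 of the TRIM28 knockdown (-0.85 to -0.90). DHX40 had the largest of these PARP1 knockdown falls, from a mean of 5.22 to 1.18 CPM (-2.17 ± 0.32, adjusted p = 2.75e-06). By box class, 10 of 25 tested DEAD genes fell and 5 rose in TRIM28 knockdown, and 16 fell and 6 rose in PARP1 knockdown. Of the 9 DEAH genes, 5 fell and 0 rose in each comparison. Of the 12 with another codon there, 5 fell and 2 rose, then 6 fell and 4 rose. Of all tested genes, 17.5% fell and 10.3% rose in TRIM28 knockdown, and 32.2% fell and 27.1% rose in PARP1 knockdown. No test was made between the classes.

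Set directly against TRIM28 knockdown, 17 helicases were lower in PARP1 knockdown, 3 were higher and 28 did not pass. Over all tested genes 13.2% were lower and 11.9% higher, 25.1% in either direction. The helicases' median log2 difference was -0.32, against -0.03 over all tested genes. DHX33 (-1.02 ± 0.19, adjusted p = 0.000859), DDX17 (-0.99 ± 0.17, adjusted p = 0.000509), DDX18 (-0.94 ± 0.21, adjusted p = 0.00299) and DHX8 (-0.91 ± 0.17, adjusted p = 0.000878) were lower, with no overlap of their libraries. Lack of overlap was a condition for naming the largest changes, here and above. All 4 still passed when trend-corrected (-0.83, -0.64, -0.66 and -0.56). DDX5 (-0.79 ± 0.15, adjusted p = 0.000819) and DDX3X (-0.78 ± 0.19, adjusted p = 0.00541) were also lower, and DDX3X lost this call when trend-corrected (-0.45).

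DHX9 was lower in PARP1 than in TRIM28 knockdown by a smaller margin (-0.58 ± 0.20, adjusted p = 0.0371). That call was lost when trend-corrected (-0.31) and without PARP1 knockdown replicate 1 (-0.46) or 2 (-0.61) or TRIM28 knockdown replicate 1 (-0.50) or 2 (-0.55). DDX42, DDX1 and DHX15 did not pass (-0.46, -0.24 and -0.47, adjusted p = 0.136, 0.38 and 0.0793). DDX49 (0.58 ± 0.15, adjusted p = 0.00609), DDX56 (0.44 ± 0.14, adjusted p = 0.0203) and DHX30 (0.37 ± 0.13, adjusted p = 0.0395) were higher, and none of them passed when trend-corrected (0.15, 0.27 and 0.23). Both DDX56 and DHX30 lost this call without TRIM28 knockdown replicate 1 (0.38 and 0.29) or 2 (0.47 and 0.39) or PARP1 knockdown replicate 2 (0.44 and 0.42) or 3 (0.33 and 0.33), and DHX30 also without control replicate 2 (0.39). Trend-corrected, 10 helicases were lower and 0 higher in this comparison, against 8.94% and 5.78% of all tested genes. The count of lower helicases was 10 without PARP1 knockdown replicate 3, 10 without TRIM28 knockdown replicate 2 and 11 without TRIM28 knockdown replicate 1.

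Within paralog pairs the balance of FPKM levels was not constant. The ratio of DDX17 to DDX5 was 0.582 to 0.646 in control, 0.363 to 0.448 with TRIM28 knocked down, and 0.310 to 0.408 with PARP1 knocked down, so both knockdowns lay below all controls and overlapped each other. DDX39B, the paralog of DDX39A in the TREX export complex, did not pass in either knockdown (-0.29 ± 0.15, adjusted p = 0.152, and -0.30 ± 0.15, adjusted p = 0.097), but passed as lower in both with a filter of at least 10 CPM in 3 libraries (-0.39 and -0.41). It measured 24.4, 25.6 and 27.5 CPM in control, 19.6, 24.3 and 19.6 CPM with TRIM28 knocked down, and 23.9, 19.3 and 19.9 CPM with PARP1 knocked down. Its FPKM ratio to DDX39A was 0.0337 to 0.0381 in control, 0.0189 to 0.0235 with TRIM28 knocked down, and 0.0142 to 0.0221 with PARP1 knocked down. DDX39B has 49.5% GC and DDX39A 58.3%, and trend-corrected they changed by -0.14 and 0.22 in TRIM28 knockdown and by 0.08 and 0.28 in PARP1 knockdown. DDX39B also shares its locus with a read-through gene on the same strand, so its level and this ratio are uncertain. DDX19A over DDX19B was 0.743 to 0.807 in control, against 0.527 to 0.668 and 0.553 to 0.707. DDX21 over DDX50 overlapped in all groups, at 0.548 to 0.747, 0.645 to 1.02 and 0.519 to 1.25. No test was made of these ratios, and they were not corrected for length and GC trends.

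Summed over the family, the ranges of helicase RNA overlapped between groups. Control libraries summed to 4065 ± 38.0 CPM, TRIM28 knockdown libraries to 4015 ± 197 and PARP1 knockdown libraries to 4209 ± 143 (SD, n = 3). The make-up of these sums differed. Genes with GC below 50% (34, including the untested ones) summed to 1237 to 1597 CPM in control (mean 1467), 883 ± 24.2 with TRIM28 knocked down and 556 ± 89.6 with PARP1 knocked down (SD, n = 3). The 18 genes at 50% or more summed to 2598 ± 206, 3132 ± 222 and 3652 ± 222 CPM (SD, n = 3). Neither sum overlapped between any 2 of the 3 groups. All tested genes leaned the same way by GC, as given above, and their sums were not taken for comparison. DDX56 was the largest single contributor in all 9 libraries.

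**Figure D4:**
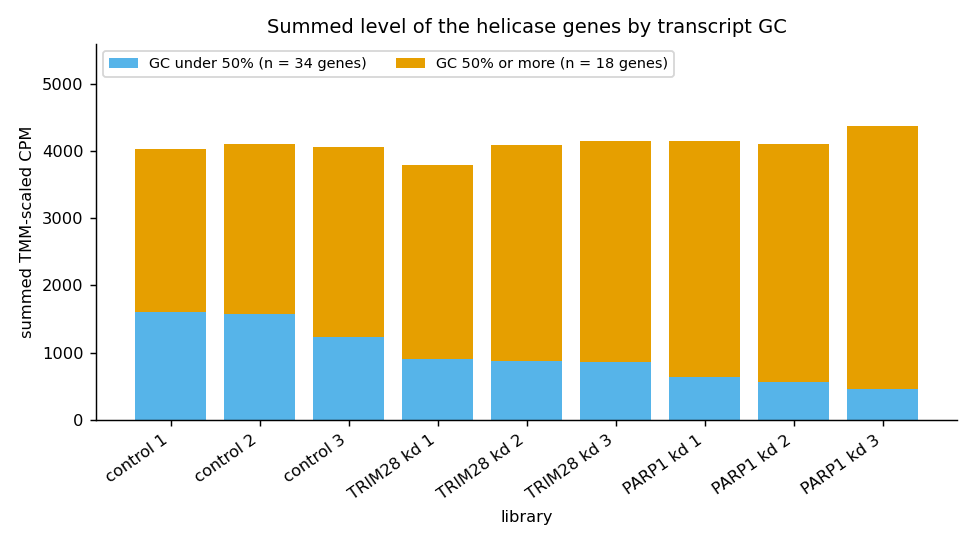
Summed TMM-scaled CPM of the 52 helicase genes (vertical axis) in each of the 9 libraries (horizontal axis), divided into genes with GC below 50% (34 genes) and at 50% or more (18 genes). The total stays between 3790 and 4371 CPM while the part below 50% GC goes from 1237 to 1597 CPM in control down to 462 to 641 CPM in PARP1 knockdown.

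RNA helicases outside the DDX and DHX names were counted for comparison. Of 18 tested, 1 fell and 1 rose in TRIM28 knockdown, and 4 fell and 1 rose in PARP1 knockdown, with medians of -0.13 and -0.25. The shares of all tested genes were 17.5% lower and 10.3% higher, then 32.2% and 27.1%. With library totals, 3 fell and 0 rose in TRIM28 knockdown and 10 fell and 1 rose in PARP1 knockdown. Trend-corrected, 1 fell and 1 rose, then 3 fell and 2 rose, and the medians turned to 0.01 and 0.17. Their difference from the DDX and DHX genes was not tested. SNRNP200, the helicase that unwinds the U4 and U6 RNAs, fell from a mean of 465 CPM to 185 CPM (-1.33 ± 0.14, adjusted p = 1.07e-06) and 98.6 CPM (-2.24 ± 0.15, adjusted p = 3.32e-11). HELZ2, an interferon-induced helicase, rose from 28.0 to 38.3 CPM (0.45 ± 0.16, adjusted p = 0.0315) and 51.9 CPM (0.89 ± 0.16, adjusted p = 2.69e-05). SUPV3L1, of mitochondrial RNA decay, and EIF4A2, of translation initiation, fell in PARP1 knockdown (-1.01 ± 0.19, adjusted p = 6.92e-05, and -0.71 ± 0.14, adjusted p = 0.000136). EIF4A2 lost its call when trend-corrected (-0.25). The single rise in TRIM28 knockdown became 0 without control replicate 1 or 2 or replicate 2 or 3 of the TRIM28 knockdown.

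Of 23 G-patch proteins, the class that includes DEAH helicase activators, 9 fell and 4 rose in TRIM28 knockdown, and 13 fell and 5 rose in PARP1 knockdown, with medians of -0.27 and -0.74. Among all tested genes 17.5% fell and 10.3% rose, then 32.2% and 27.1%. Trend-corrected, the rises were 1 and 2 and the falls 9 and 15. With library totals, the rises were 0 and 2 and the falls 11 and 16. GPATCH8 (-1.50 ± 0.20, adjusted p = 9.57e-06, and -2.49 ± 0.22, adjusted p = 2.1e-09) and SUGP2 (-1.03 ± 0.15, adjusted p = 2.22e-05, and -1.80 ± 0.16, adjusted p = 1.4e-09) fell in both, GPATCH8 in PARP1 knockdown by 1.76 when trend-corrected. GPATCH3 rose (0.40 ± 0.14, adjusted p = 0.0281, and 0.79 ± 0.14, adjusted p = 2.23e-05) on the TMM scale, but trend-corrected it was at -0.07 and -0.13. The 4 TRIM28 knockdown rises became 0 without control replicate 1 or 2 or replicate 2 or 3 of the TRIM28 knockdown, 1 without PARP1 knockdown replicate 2, and 2 without TRIM28 knockdown replicate 1. The 9 falls became 4 without control replicate 1.

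DDX6 works with decapping and LSM proteins, and 20 genes of that set, DDX6 among them, moved both ways. In TRIM28 knockdown 6 fell and 8 rose, and in PARP1 knockdown 8 fell and 8 rose, against 17.5% and 10.3%, then 32.2% and 27.1%, of all tested genes. The rises in TRIM28 knockdown were 2 with library totals, 2 with the length trend alone removed and 5 when trend-corrected, beside 6, 6 and 7 falls. In PARP1 knockdown the rises were 6, 6 and 5, beside 9, 8 and 7 falls. The scaffold PATL1 fell by 1.33 (SE 0.18, adjusted p = 7.91e-06) and by 1.83 (SE 0.18, adjusted p = 1.43e-08) on the log2 scale, and the repressor LSM14A by 1.0 (SE 0.17, adjusted p = 0.00018) and by 1.77 (SE 0.18, adjusted p = 2e-08). LSM7, a subunit of the LSM ring, rose from 176 CPM in control to 269 CPM (0.61 ± 0.15, adjusted p = 0.0042) and 409 CPM (1.21 ± 0.15, adjusted p = 2.92e-07), and LSM4 by 0.52 ± 0.14 (adjusted p = 0.00736) and 1.02 ± 0.14 (adjusted p = 1e-06). The calls of LSM7 (0.07 and 0.02) and LSM4 (0.11 and 0.20) were lost when trend-corrected, whereas PATL1 (-1.24 and -1.56) and LSM14A (-0.85 and -1.48) still passed. The count of 8 rises in TRIM28 knockdown was 1 without control replicate 1, 2 without control replicate 2, TRIM28 knockdown replicate 1 or 2, and 5 without TRIM28 knockdown replicate 3.

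Promoters of the family were read from RefSeq on GRCh38.p14, where 46 of the 52 genes had an entry. Of these, 11 (23.9%) held the ETS letters CCGGAAGT on either strand in the 300 bases around the start, against 4.14% of all 35116 promoters of that length. They were DDX5, DDX21, DDX27, DDX39B, DDX47, DDX50, DDX56, DHX8, DHX30, DHX34 and DHX37. CCAAT, the NF-Y letters, was in 21 (45.7%) against 34.6%, and the E-box CACGTG in 8 (17.4%) against 7.26%. The longer NRF1, YY1 and interferon response motifs were in 2 (4.35%), 1 (2.17%) and 1 (DHX15, 2.17%), against 1.24%, 0.849% and 3.57%. The family was counted with 1 promoter per symbol. The 35116 promoters were not reduced in that way, and no step limited them to coding or tested genes. No difference was tested, and matches of different letters may overlap. By the PARP1 knockdown call, the ETS letters were in 5 of 25 promoters of genes that fell, 3 of 8 of genes that rose and 3 of 9 of genes that did not pass.

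The 150 bases before the start are printed for the helicase with the largest fall on the TMM scale and for the most abundant one, which rose. Capitals mark the CCAAT letters (read on the other strand as ATTGG) and, in DDX56, the ETS letters (read on the other strand as ACTTCCGG). In DDX56 the marked stretches do not overlap.
DHX9 (chr1:182839197-182839346, + strand): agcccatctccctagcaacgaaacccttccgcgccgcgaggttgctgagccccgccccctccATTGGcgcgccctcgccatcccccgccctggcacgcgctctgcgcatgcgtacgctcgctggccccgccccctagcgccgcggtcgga
DDX56 (chr7:44573909-44574058, - strand): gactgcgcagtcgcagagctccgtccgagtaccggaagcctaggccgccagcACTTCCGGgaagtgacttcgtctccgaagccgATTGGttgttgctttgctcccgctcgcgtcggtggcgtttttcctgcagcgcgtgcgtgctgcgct
A match describes letters only.

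Counts of some members are uncertain because other genes overlap them. On the same strand DDX39B shares its locus with the ATP6V1G2-DDX39B read-through gene, and DDX46, DDX47 and DHX33 overlap C5orf24, APOLD1 and C1QBP. On the opposite strand DDX5, DDX17, DDX19B, DDX28, DDX42 and DHX8 are among those that overlap tested genes, and no source used here gives the strand setting of the counting.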

How the data were processed

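RNA from 9 libraries of 786-O cells (3 per group) was measured. The authors deposited raw counts per gene and FPKM values for all libraries. The submitters' processing notes name STAR 2.7.9a, featureCounts 2.0.1, FastQC 0.11.9, Trim Galore 0.6.6, DESeq2 1.30.0, R 4.0.3 and the build GRCh38, with no order. No source used here gives the annotation release or how strand was treated in counting, while the library kit is directional per the labels' protocols.

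Counts were fitted with edgeR 4.0.16 in R 4.3.3 (filterByExpr, TMM factors, quasi-likelihood test) over all 9 libraries, which left 13562 genes and 6 residual degrees of freedom. P-values were adjusted by Benjamini-Hochberg over all tested genes, with a threshold of 0.05, and a standard error is the log2 fold change divided by the root of the F statistic. CPM values are TMM-scaled, and deposited FPKM served for levels between genes. Library totals limit the precision of low genes such as DHX58. The script was tested on simulated data.

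GC content came from the longest GENCODE 29 transcript, available for 98.7% of tested genes. Length and GC trends were removed per library by lowess (span 0.3, prior count 2). The helicases and lists were chosen with earlier results of these data known, and the GC limit of 50% after seeing the values. Genes given per library were the 6 largest falls and 6 largest rises per comparison with control, and 4 each way in the direct comparison, among those past the threshold with a mean of at least 1 FPKM and no overlap between groups. DHX9, DHX58, DDX3X and the paralog pairs were added whatever their values, and of each list up to 3 genes per direction and comparison with the smallest adjusted p could be named. Members outside this rule, such as DDX6, DDX20, DHX38 and DHX40, were named with fewer values to account for their role groups. Alternatives were DESeq2 1.42.0, limma 3.58.1 on log2(FPKM + 1) and log2(FPKM + 0.1), other scalings and filters, the 2 compared groups alone, trend removal, leaving out each library and a block on replicate number.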

Additional observations from a re-analysis of the deposited data

How the results depend on the processing

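The counts of helicases that fell in TRIM28 knockdown (21) and in PARP1 knockdown (28) stayed within 16 to 23 and 23 to 32 under the alternatives run, and leaving out a library gave 17 to 22 and 26 to 29. These settings did not all test the same helicases. Limma took only genes with a mean of at least 1 FPKM, and the 10 CPM filter dropped low genes. Neither tested DHX58, which rose on the TMM scale, or DHX40, which fell. The counts of rises, and those of the direct comparison, moved more. The 7 rises in TRIM28 knockdown became 4 with library totals, 4 with a filter of at least 10 CPM in 3 libraries, 1 with length and GC trends removed, 3 with limma on log2(FPKM + 1) and 3 with limma on log2(FPKM + 0.1), and leaving out a library gave 2 to 8 (3 without control replicate 1, 2 without control replicate 2, 4 without TRIM28 knockdown replicate 2 or 3). The 10 rises in PARP1 knockdown became 6 with both trends removed, and leaving out a library gave 9 to 10. Of the 17 helicases lower in PARP1 than in TRIM28 knockdown, the count was 10 with both trends removed and 10 to 18 without a library. The 3 higher ones became 6 with DESeq2, 1 with library totals, 0 with both trends removed, 1 with each limma setting, and 1 to 5 without a library (5 without control replicate 3 or PARP1 knockdown replicate 1, and 1 without TRIM28 knockdown replicate 1 or 2 or PARP1 knockdown replicate 2 or 3). The cause was not tested.

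Same-numbered libraries correlated at -0.0814 to 0.141 in their deviations from group means, not all above 0.1, so the numbers were not taken to pair samples. With a replicate block, 20 helicases fell and 7 rose in TRIM28 knockdown, 28 fell and 10 rose in PARP1 knockdown, and 18 were lower and 4 higher in the direct comparison. The replicate block with both trends removed gave 0 rises in TRIM28 knockdown, 5 in PARP1 knockdown, and 10 lower and 0 higher in the direct comparison.

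Signs turned in some genes with both trends removed, without and with the replicate block. In TRIM28 knockdown these included GPATCH3 (-0.07 and -0.07), GPKOW (-0.15 and -0.14), LSM2 (-0.10 and -0.10) and RBM5 (0.02 and 0.02). In PARP1 knockdown they included DHX34 (-0.08 and -0.08), GPATCH3 (-0.13 and -0.13) and LSM2 (-0.04 and -0.04). They also included GPKOW (-0.51 and -0.52, and -0.14 with the length trend alone removed). TRIM28 turned there as well (-0.35 and -0.35, also -0.01 with library totals and with each limma setting). In the direct comparison they included GPATCH3 (-0.06 and -0.06), GPKOW (-0.37 and -0.37) and LSM7 (-0.05 and -0.05). Of all other values for single genes, 3938 kept their side of the threshold, 384 lost their call and 93 gained one. Not all of the 3938 kept direction. In PARP1 knockdown DDX23 (-0.15 to 0.04) and DDX39B (-0.30 to 0.08) turned when trend-corrected, with no call before or after.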
